A study of Mus musculus with 12 samples.

Results

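Lymphatic endothelial cells of the mouse aorta were taken from 4 single-cell RNA libraries by the genes detected in each cell barcode. A barcode was kept with more than 200 genes, more than 1000 unique molecular identifiers (UMIs, each 1 counted RNA molecule) and under 10% of its UMIs from mitochondrial genes. It was a member when at least 3 of the 6 lymphatic genes Prox1, Lyve1, Mmrn1, Flt4, Reln and Pdpn and at least 1 of the 4 endothelial genes Pecam1, Cdh5, Egfl7 and Cldn5 had a UMI, and when Ptprc, the pan-leukocyte gene, had 0 UMIs. This gave 325 members among the 38072 barcodes that passed the limits. The library labelled Healthy held 119 of them, AS held 11, MTZ-treated 85 and MTZ-preventive 110.

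All mice were labelled ApoE-/-, a genotype that raises blood cholesterol, and were by the study's account males of 8 weeks at the start, in 4 groups of 18. The untreated group, which the study calls healthy and which is called here the library labelled Healthy, had a normal diet with saline, and the other 3 groups had a diet with 1% cholesterol and 10% fat for 24 weeks. Of these, AS received saline, MTZ-treated received saline for the first 12 weeks and methazolamide (MTZ) thereafter, and MTZ-preventive received MTZ throughout, at 25 mg/kg given into the stomach every other day. MTZ inhibits carbonic anhydrases, and the labels spell it methoxazolamide. The aortas of 6 mice were pooled into 1 library per group, so that the spread between mice was not measured, and intervals between libraries cover counting error only.

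Lymphatic vessels of the artery wall run mainly in the outer layer, the adventitia, and carry fluid, lipoproteins and leukocytes away from it. Their endothelium takes its identity from the transcription factor Prox1, and receives growth signals through Flt4 (VEGF receptor 3), the receptor for Vegfc and Vegfd. Blind-ended capillaries carry Lyve1, a hyaluronan receptor, and make the chemokine Ccl21, which draws dendritic cells and T cells with the receptor Ccr7 into the vessel. Collecting vessels carry less Lyve1 and have valves, which need the transcription factor Foxc2.

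Each of the 4 marker genes that define the class was far more frequent in members than in the rest of the barcodes, as the rule fixed. Mmrn1, an extracellular matrix protein of lymphatic endothelium, had a UMI in 97.5%, 100%, 92.9% and 90.0% of the members of the library labelled Healthy, AS, MTZ-treated and MTZ-preventive, an order kept in all lists of 4 values here. Prox1 had a UMI in 74.8%, 36.4%, 75.3% and 54.5%, against 0.867%, 0.320%, 2.06% and 1.28% of the other barcodes. Flt4 had one in 83.2%, 18.2%, 70.6% and 71.8%. Lyve1 had one in 52.9%, 81.8%, 36.5% and 76.4%, and of the 4 markers Flt4 had the widest range among libraries. Genes with at least 10 UMIs in members were ranked by their level over that of all other barcodes, to which 1 count per 1000000 UMIs was added. Ccl21a, which the rule did not use, led in 3 libraries, by 154-fold, 40.8-fold and 200-fold. Nts led in AS by 191-fold, a lead that rests on 1 barcode with 63 of its 78 UMIs. Ccl21a had 3 UMIs in AS and was not ranked there.

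Many members lay at the edge of the rule. Exactly 3 lymphatic genes were detected in 47, 9, 46 and 47 members, and all 6 in 23, 0, 1 and 12. Just outside it, 59, 10, 98 and 98 barcodes with 2 lymphatic genes met the other conditions. These had a median of 2751, 1895, 1798 and 2594 UMIs, against 3245, 2203, 3002 and 3003 for members with exactly 3 genes. Their summed Ccl21a level was 890, 0, 1432 and 333 counts per 1000000 UMIs of the same barcodes (CPM), against 1433, 156, 2302 and 1945 CPM for members with 3 genes. A barcode with more UMIs has more chances to show 3 genes, and all members together had medians of 3776, 2206, 3209 and 3542 UMIs where all barcodes had 2002, 1300, 1569 and 1770.

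Several features of the libraries bear on the results. Apoe went against the genotype label in the library labelled Healthy, with 578 CPM (438 UMIs) in members and 1398 CPM in blood endothelial barcodes, where the members of the other libraries had 0, 28.8 and 22.4 CPM. AS held 11 members with 29637 UMIs in all, where 0 UMIs of a gene leave room for 101 CPM (3 UMIs), against 3.96, 5.75 and 5.17 CPM in the other libraries. A doublet caller marked 24, 0, 2 and 30 members, which is 20.2%, 0%, 2.35% and 27.3% of them, against 9.87%, 1.77%, 5.77% and 13.1% of all barcodes. Between 209 and 805 barcode sequences were shared by pairs of libraries, and no shared barcode was a member in both. A B cell receptor contig, a readout that the rule did not use, stood on 2, 0, 0 and 1 members, and a T cell receptor contig on 2, 0, 0 and 0.

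Genes of other cell classes were present in members at levels that differed between libraries. The summed level of 9 fibroblast genes was 973, 169, 357 and 1598 CPM, below the 3210, 2094, 3299 and 2348 CPM of blood endothelial barcodes, with Col3a1 (222 UMIs), Col1a1 (3), Dcn (52) and Dcn (524) the most abundant. The 8 smooth muscle genes summed to 776, 135, 2502 and 939 CPM, led by Acta2 (211 UMIs), Myh11 (1), Tagln (554) and Tagln (207). The 8 adipocyte genes summed to 6.60, 169, 21.1 and 878 CPM, and of these 405 UMIs in MTZ-preventive were Cfd, an adipocyte-secreted protease. Adipoq was at 0 in 3 libraries, and the macrophage genes Csf1r, Adgre1 and Cd163 and the neutrophil genes Ly6g, Csf3r and Camp were at 0 in every library. The 5 hemoglobin and heme genes summed to 2.64, 675, 205 and 1.72 CPM, the 6 Schwann cell genes to 269, 0, 28.8 and 13.8 CPM, and the 6 genes of lymph node stroma to 2.64, 0, 21.1 and 245 CPM (Cxcl13 132 UMIs in MTZ-preventive). The remaining lists were low, with at most 202 CPM for neutrophils (6 UMIs in AS), 94.7 CPM for mesothelium (Prg4 alone), 60.3 CPM for T cells, 43.6 CPM for B cells and 38.3 CPM for macrophages. The part of these genes in the differences between conditions was not tested, apart from repeats with members that held at most 1 UMI of such genes.

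Lymphatic members made up a smaller share of the AS library than of the library labelled Healthy, whose Apoe went against its genotype label. Of all barcodes that passed the limits, 0.964% (95% Clopper-Pearson interval 0.80 to 1.15), 0.50% (0.25 to 0.893), 1.18% (0.942 to 1.46) and 0.674% (0.554 to 0.812) were members. Against barcodes with at least 2 of the 4 endothelial genes and no Ptprc, the shares were 8.64% (7.19 to 10.3), 1.45% (0.696 to 2.65), 3.08% (2.43 to 3.85) and 2.89% (2.34 to 3.53). The library labelled Healthy was above the other 3 on the endothelial scale, and AS below them, with intervals of AS and MTZ-treated and of AS and MTZ-preventive that overlapped.

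The AS share was 0.518 times that of the library labelled Healthy over all barcodes (interval 0.252 to 0.961) and 0.168 times over endothelial barcodes (0.0783 to 0.319). Compared with AS, the share was 2.36-fold in MTZ-treated (1.25 to 4.90) and 1.35-fold in MTZ-preventive (0.725 to 2.78), and over endothelial barcodes 2.13-fold (1.10 to 4.62) and 2.0-fold (1.04 to 4.31). MTZ-preventive had 0.572 times the share of MTZ-treated over all barcodes (0.427 to 0.769), and 0.939 times over endothelial barcodes (0.685 to 1.29), a comparison added after the values were seen. The median depth over all barcodes was 2002, 1300, 1569 and 1770 UMIs. Its part in the differences of share was not tested, apart from repeats with thinned barcodes. With every barcode thinned to 1000 UMIs and 2 lymphatic genes required, also added later, the shares of barcodes with an endothelial gene were 4.33%, 0.553%, 2.26% and 2.09%. The library labelled Healthy stood above both MTZ libraries there and AS below them. Over all barcodes the same repeat gave 0.819%, 0.273%, 1.07% and 0.662%, with MTZ-treated highest, as without thinning. Without called doublets the AS share over all barcodes was 0.596 times that of the library labelled Healthy (0.288 to 1.12). With at least 2 lymphatic genes it was 0.661 times (0.40 to 1.04), and both intervals include 1. MTZ-preventive stood at 3.05-fold of AS (1.64 to 6.28) at limits of 500 UMIs and 20% mitochondrial UMIs. It stood at 4.25-fold (1.13 to 35.9) with at least 4 lymphatic genes, and at 1.11-fold (0.587 to 2.31) without called doublets.

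**Figure D1:**
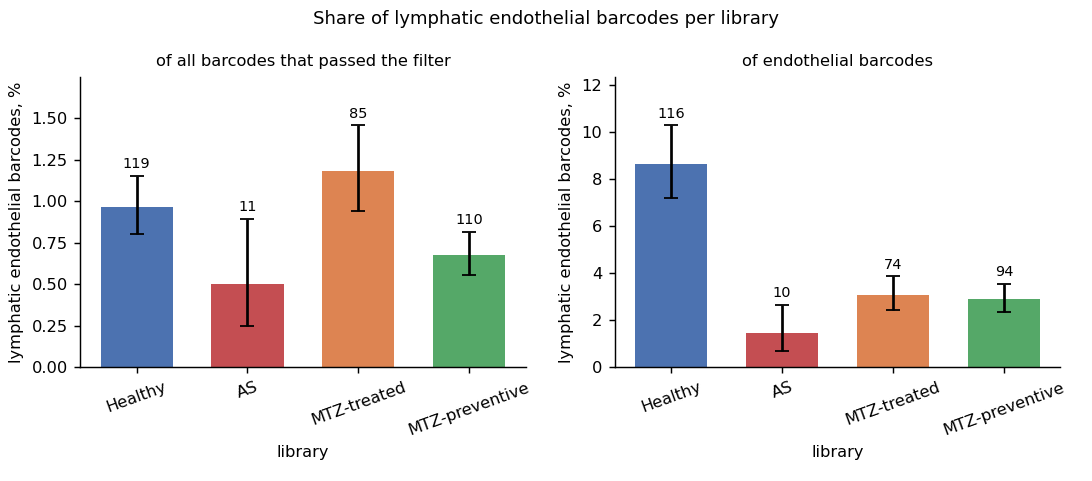
Share of lymphatic members (%) in each library, of all barcodes that passed the limits (left) and of endothelial barcodes (right), with 95% Clopper-Pearson intervals for counting error and the number of members above each bar. On the right the library labelled Healthy (8.64%) stands above the others and AS (1.45%) is lowest.

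To ask what else lymphatic members express, their summed UMIs were compared with those of 6272 blood endothelial barcodes (1033, 615, 1984 and 2640), which had at least 2 of the 4 endothelial genes, none of the 6 lymphatic genes and no Ptprc. The 4 libraries were the replicates, and edgeR's quasi-likelihood test was used with the library as a block and Benjamini-Hochberg adjustment. Of 8985 genes tested, 836 were higher in members (9.30%) and 1171 lower (13.0%), with 531 of the former higher and 1027 of the latter lower in all 4 libraries. A gene at 0 among the 29637 UMIs of AS members could not be higher in all 4. The counts of 531 and 1027 are therefore partly set by the depth of AS. The counts of each gene list against blood endothelial barcodes stand beside the shares of 9.30% and 13.0%. Both classes were set by measured genes, which were left out of the test, so the test describes what else differed and is no independent evidence that the classes are cell types. Members were also deeper than blood endothelial barcodes, whose median was 1863, 1349, 1536 and 1976 UMIs.

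Known genes of lymphatic identity were almost all higher in members. Of 19 tested, 18 passed upwards and none downwards, against 9.30% and 13.0% of all genes, and their median log2 difference was 2.27 where that of all genes was -0.03. Ccl21a had the largest difference of the genes higher in members. Its level was 9266, 101, 2975 and 4270 CPM in members and 14.2, 2.02, 39.2 and 17.1 CPM in blood endothelial barcodes. The log2 difference was 7.73 ± 0.31 (SE, n = 4 libraries, edgeR adjusted p = 2.8e-34). Each SE here was derived from the edgeR test statistic and is not the spread of the 4 library ratios. The symbol Ccl21a stands on 2 lines of the deposited gene list, which were summed, and near-identical copies of the gene make its level uncertain.

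Nts, the precursor of the peptide neurotensin, had 706, 2632, 1790 and 1123 CPM in members and 29.4, 11.1, 81.1 and 42.5 CPM in blood endothelial barcodes, a log2 difference of 5.00 ± 0.25. The groups did not overlap, although 63 of the 78 Nts UMIs of AS lay in 1 barcode. Fgl2, a fibrinogen-like secreted protein, was more even, with 1158, 1080, 792 and 1171 CPM in members against 42.2, 36.4, 70.2 and 69.6 CPM (log2 4.16 ± 0.22). The transcription factor Maf had 259, 236, 196 and 276 CPM and Tbx1 256, 439, 171 and 210 CPM, at log2 differences of 4.19 and 4.29. Thy1, a surface glycoprotein that lymphatic endothelium carries, reached 1035, 169, 474 and 734 CPM, and Stab1, a scavenger receptor, 532, 574, 368 and 336 CPM. Nr2f2 and Nrp2, a transcription factor upstream of Prox1 and a co-receptor for Vegfc, differed less, by 1.46 and 1.52. Sox18, the other factor upstream of Prox1, was the list's exception, at 326, 202, 362 and 298 CPM in members and 428, 375, 412 and 360 CPM in blood endothelial barcodes (log2 -0.39 ± 0.20, edgeR adjusted p = 0.20). It passed downwards without called doublets (-0.54) and with at most 1 UMI of other-class genes (-0.92).

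**Figure D2:**
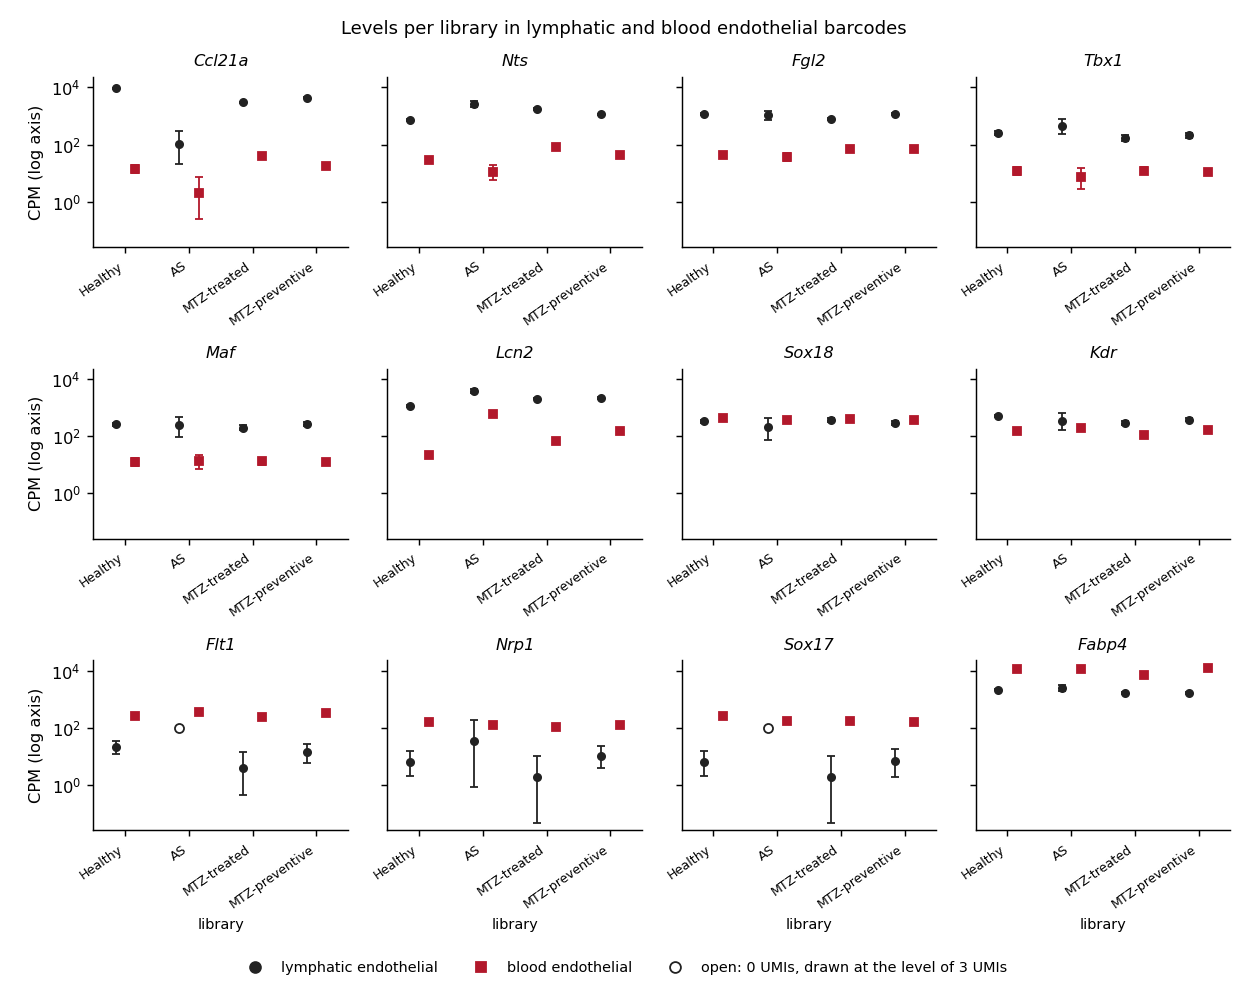
Level (CPM, log axis) of 12 genes in each library, in lymphatic members (circles) and blood endothelial barcodes (squares), with exact 95% Poisson intervals for counting error. Open symbols mark 0 UMIs, drawn at the level of 3 UMIs. Ccl21a, Nts, Fgl2, Tbx1, Maf and Lcn2 lie higher in members in every library, Flt1, Nrp1, Sox17 and Fabp4 lower, and Sox18 close together.

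Among the genes with the largest differences were several outside the identity list. Duox2 and its maturation factor Duoxa2, which together make hydrogen peroxide at the cell surface, were higher in members by 6.04 ± 0.35 and 5.40 ± 0.31 on the log2 scale. Duox2 had 80.5, 33.7, 88.2 and 60.3 CPM in members and at most 2.04 CPM in blood endothelial barcodes. Slc45a3, a solute carrier, had 173, 33.7, 90.1 and 153 CPM (log2 6.07 ± 0.29), and Pard6g, a polarity protein on the identity list, 296, 202, 144 and 255 CPM (5.44 ± 0.25). Sema3a, a secreted guidance signal that has a known role in lymphatic valves, had 38.3, 67.5, 57.5 and 91.3 CPM (5.23 ± 0.36). Cldn11, a tight junction claudin, had 48.8, 202, 30.7 and 43.1 CPM (4.96 ± 0.42), and Dtx1, a regulator of Notch, 246, 169, 130 and 202 CPM (4.88 ± 0.24). The amino acid transporter Slc38a4 (6.37 ± 0.60), the endophilin Sh3gl3 (6.06 ± 0.46) and the chemokine Cxcl17 (5.99 ± 1.0) completed the 12 highest, each at under 70 CPM. In AS most of these rested on 1 to 6 UMIs.

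The 8 genes with the lowest differences had 0 UMIs in all members. Their bounds set the floor of 3 UMIs over all members against the level of blood endothelial barcodes, weighted by each library's share of member UMIs. Csf2rb2, a cytokine receptor subunit with a near-identical paralog that makes its count uncertain, was at least 27.4-fold lower than the weighted 43.5 CPM of blood endothelial barcodes. The chemokine Cxcl9 was at least 18.3-fold lower, the alcohol dehydrogenase Adh7 at least 12.5-fold, Slc26a10 at least 11.1-fold, the ceramide enzyme Degs2 at least 11.01-fold, the chemokine Cxcl14 at least 10.3-fold, Exoc3l2 at least 8.98-fold and the chloride channel Ano1 at least 8.86-fold. Cxcl14 stood at 0.346, 19.2, 8.39 and 44.5 CPM in blood endothelial barcodes, so that in the library labelled Healthy only 1 UMI was there to compare. Its call was lost in DESeq2.

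Genes of the capillary type and of the collecting and valve type were both present. Of 8 capillary genes tested, 6 were higher and 2 lower. Piezo2, a mechanically gated channel, had 46.2, 0, 15.3 and 43.1 CPM (log2 3.64 ± 0.42) and Ackr2, a scavenging chemokine receptor, 21.1, 33.7, 5.75 and 36.2 CPM (3.71 ± 0.55). The fatty acid carrier Cd36, at 115, 270, 103 and 138 CPM against 649, 1265, 314 and 824 CPM, was lower (-2.30 ± 0.22). Of 15 collecting and valve genes tested, 7 were higher and 6 lower. Foxc2 had 63.4, 33.7, 76.7 and 80.9 CPM (1.88 ± 0.23), the factor Foxp2 84.5, 67.5, 80.5 and 68.9 CPM (3.43 ± 0.27), and the connexin Gja1 170, 67.5, 107 and 84.4 CPM (1.85 ± 0.22). Clu, Esam, Vcam1, Lama5, Mmp2 and Fn1, which blood vessels or adventitial cells also express, were the 6 lower. Of 6 genes of lymph node lymphatics tested, 3 were higher, namely Ackr4 (184, 0, 74.8 and 84.4 CPM), a scavenger of Ccl21, the lymphocyte survival factor Il7 (59.4, 33.7, 63.3 and 89.6 CPM) and Btnl9, and 3, Cd274, Glycam1 and Csf1, were lower (1 without the library labelled Healthy). Without the library block, 3 capillary genes were higher and 1 lower, and 1 lymph node gene was higher and none lower. Btnl9 stood at a log2 difference of -0.32 when members and blood endothelial barcodes were limited to at most 1 UMI of other-class genes.

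Of 20 genes of lymphatic growth signalling tested, 7 were higher and 4 lower, beside 9.30% and 13.0% of all genes. Members had more Kdr (VEGF receptor 2), at 502, 337, 293 and 381 CPM against 157, 189, 108 and 164 CPM (log2 1.32 ± 0.21), a difference that did not pass among members and blood endothelial barcodes with at most 1 UMI of other-class genes. They had less of Flt1 (VEGF receptor 1), at 21.1, 0, 3.83 and 13.8 CPM against 262, 363, 234 and 319 CPM (-4.37 ± 0.30), and of the co-receptor Nrp1 (-4.25 ± 0.34). Small vessel endothelial barcodes, a subset of the blood class, held Kdr at 346, 271, 227 and 257 CPM, below members in all 4 libraries. The ligand Vegfc had 1 UMI in all members and 37.7, 17.2, 37.9 and 17.9 CPM in blood endothelial barcodes (-5.72 ± 0.68). The receptor of adrenomedullin, Calcrl, and its ligand Adm were higher by 1.22 and 1.2, Efnb2 by 1.18 and the hepatocyte growth factor receptor Met by 1.56. The angiopoietin receptors Tie1 and Tek did not pass (0.42 ± 0.21 and -0.41 ± 0.22).

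Of 19 transcription factors tested, 8 were higher and 1 lower. Sox17, a factor of arterial endothelium, was the 1 lower, at 6.60, 0, 1.92 and 6.89 CPM in members and 258, 178, 174 and 159 CPM in blood endothelial barcodes (log2 -5.24 ± 0.35). The flow-responsive factor Klf4, at 1464, 1788, 2020 and 1693 CPM, was higher by 1.33 ± 0.18, while Klf2 (0.23 ± 0.19), Gata2 (0.28 ± 0.21), Erg and Fli1 did not pass. Nfatc1, which acts in valves, was higher by 1.26 ± 0.21.

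**Figure D3:**
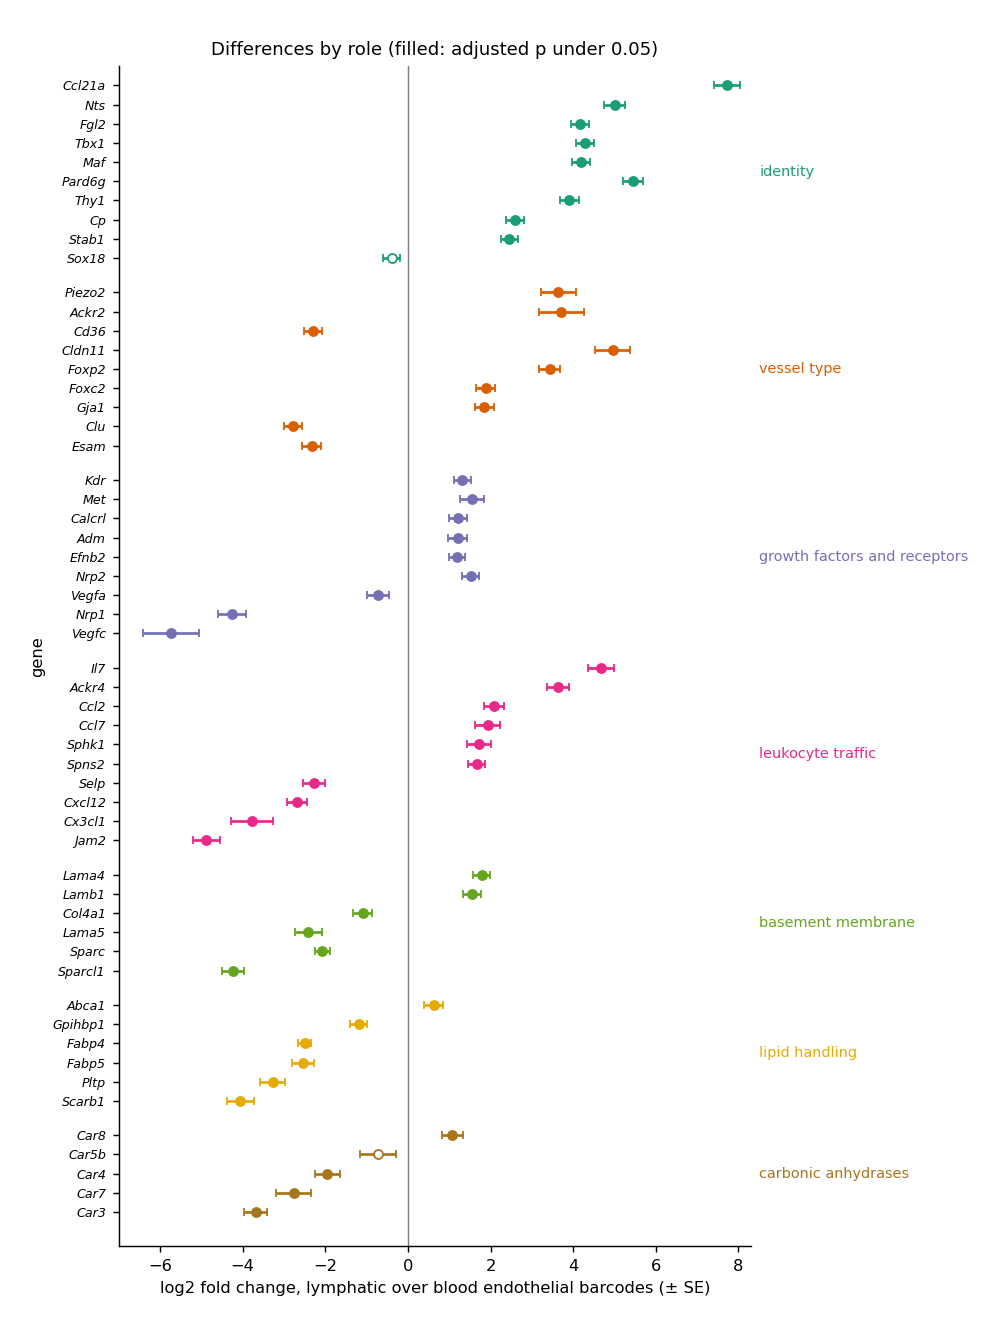
Log2 difference (members minus blood endothelial barcodes, with SE derived from the edgeR test statistic) of listed genes grouped by role. Filled points have an edgeR adjusted p under 0.05 and open points, Sox18 and Car5b, do not. Identity genes other than Sox18 lie to the right, up to 7.73 for Ccl21a, while Vegfc, Nrp1 and the lipid genes other than Abca1 lie to the left.

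Chemokines and adhesion molecules for leukocyte traffic were split between the classes. Of 27 tested, 11 were higher and 9 lower. Ccl2, a monocyte attractant, had 405, 169, 834 and 520 CPM in members against 53.6, 159, 134 and 171 CPM (log2 2.08 ± 0.24), with AS the library where the classes lay closest. Higher too were Ccl7 (1.93), the scavenging receptor Ackr3 (1.61) and the enzyme and exporter of sphingosine 1-phosphate, Sphk1 (1.72) and Spns2 (1.67). Lower were Cxcl12 (-2.67), Cx3cl1 (-3.78), Cxcl10 (-2.64), Selp (-2.27), Vcam1 (-1.76) and the junctional adhesion molecule Jam2 (-4.88). Members held little of the selectin Selp, at 13.2, 67.5, 76.7 and 12.1 CPM against 101, 120, 208 and 139 CPM.

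Of 15 junction genes tested, 4 were higher and 3 lower, beside 9.30% and 13.0% of all genes. The arterial connexin Gja5 had 1 UMI in all members (-6.75 ± 0.59), and plakoglobin (Jup) was higher by 1.12. The count of higher junction genes was 2 without the library block, without called doublets and after thinning. It was 1, with 5 lower, among members with at most 1 UMI of other-class genes. Of 20 genes of the basement membrane and its anchors, 6 were higher and 7 lower. Laminin chains differed in direction, Lama4 (1.78 ± 0.21) and Lamb1 (1.55 ± 0.22) being higher and Lama5 (-2.41 ± 0.32) lower. Collagen IV was lower, Col4a1 with 409, 67.5, 115 and 195 CPM against 548, 639, 320 and 351 CPM (-1.09 ± 0.23), and Sparcl1, at 21.1, 0, 42.2 and 41.3 CPM, was lower too (-4.24 ± 0.27).

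Lipid handling genes were mostly lower in members. Of 19 tested, 11 were lower and 1, the cholesterol exporter Abca1 (0.62 ± 0.22), higher, against 13.0% and 9.30% of all genes, with a median of -0.94. Abca1 did not pass when the library labelled Healthy, AS or MTZ-preventive was left out, nor in DESeq2, without the filter on low counts, without the library block or after thinning. Fabp4, a fatty acid binding protein, had 2149, 2429, 1639 and 1669 CPM in members against 11318, 11388, 6902 and 12123 CPM (log2 -2.50 ± 0.15). The high density lipoprotein receptor Scarb1 (-4.05 ± 0.32), the phospholipid transfer protein Pltp (-3.27 ± 0.30), Fabp5 (-2.54 ± 0.26) and Gpihbp1 (-1.19 ± 0.21), which anchors lipoprotein lipase, were lower as well. Apoe did not pass (-0.55 ± 0.29, adjusted p = 0.19), and its values rest on the library labelled Healthy.

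Carbonic anhydrases, the enzymes that MTZ inhibits, were sparse in lymphatic members. Of 16 genes listed, 5 had enough UMIs to be tested, and 3 of these were lower. Car8, a family member without catalytic activity, was the 1 higher, at 48.8, 101, 67.1 and 32.7 CPM against 19.0, 8.09, 31.5 and 24.6 CPM (log2 1.07 ± 0.26, edgeR adjusted p = 0.00059). Its call was lost with at least 4 lymphatic genes, without called doublets and after thinning. Car4, the membrane-bound enzyme of capillaries, had 2.64, 202, 19.2 and 93.0 CPM against 158, 436, 61.0 and 164 CPM (-1.95 ± 0.30), Car3 3.96, 33.7, 15.3 and 36.2 CPM (-3.68 ± 0.28) and Car7 5.28, 0, 3.83 and 5.17 CPM (-2.76 ± 0.43). The widespread cytosolic form Car2 had 1, 0, 1 and 2 UMIs in members. Car5b did not pass (-0.72 ± 0.44), and Car1, Car5a, Car6, Car9, Car10, Car12 and Car14 had 0 UMIs in members.

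Immediate early genes, which cells switch on soon after a stimulus, were mostly higher in members than in blood endothelial barcodes. Of 16 tested, 11 were higher and 1, Nr4a1, lower (log2 -0.61). Nr4a1 did not pass in DESeq2, without the library block or without the library labelled Healthy or AS, and stood at 0.06 with at most 1 UMI of other-class genes. Junb had 6022, 5534, 5893 and 6559 CPM against 2856, 2173, 2228 and 3490 CPM (log2 1.07 ± 0.15), Jun differed by 1.09 ± 0.16, Egr1 by 0.87 ± 0.16 and Fos by 0.74 ± 0.14. The count of higher genes was 2 with at least 4 lymphatic genes, 3 after thinning, 6 without MTZ-treated and 6 without the library block.

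Acute phase and metal binding genes went both ways, 7 higher and 6 lower of 17 tested. Lcn2, an iron-scavenging lipocalin, had 1139, 3779, 2055 and 2175 CPM in members against 22.1, 578, 69.9 and 152 CPM (log2 4.17 ± 0.27), and a UMI in 91.6%, 100%, 81.2% and 86.4% of members. Cebpb (1.52 ± 0.21) and Lrg1 (0.77 ± 0.21, a call lost after thinning) were higher, and the metallothionein Mt1, at 92.4, 405, 245 and 1944 CPM against 726.5, 9728, 1405 and 6396 CPM, was lower (log2 -2.82 ± 0.22). Haptoglobin (Hp) was lower as well (-2.65 ± 0.30). Without MTZ-treated 3 of the list were higher, and without the library labelled Healthy 4. Among members with at most 1 UMI of other-class genes 9 were higher and 3 lower. In DESeq2 4 were higher and 5 lower, with at least 4 lymphatic genes 3 and 6, and without the library block 3 and 1.

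Interferon, antigen presentation, heat shock and proliferation genes were compared as well. Of 16 interferon genes 3 were higher (Ifitm3 1.03 ± 0.14, Ifi27l2a 1.33 ± 0.18 and Bst2 0.56 ± 0.19) and 6 lower, led by Rsad2 (-2.23 ± 0.34). After thinning, 2 were higher and 0 lower, without the library block 2 were higher and 1 lower, and without the library labelled Healthy 3 were higher and 3 lower. Of 11 antigen presentation genes 0 were higher and 4 lower, the class II genes H2-Aa, H2-Ab1, H2-Eb1 and Cd74, with log2 differences from -1.71 to -1.23. Without the library block none of these 4 passed, and without called doublets 8 of the list were lower. Of 12 heat shock genes 2 were higher and 3 lower (1 and 3 without the library labelled Healthy or AS, 0 and 4 without MTZ-treated), and of 7 proliferation genes 0 were higher and 3 lower, beside 9.30% and 13.0% of all genes, with Mki67 at 2, 1, 1 and 1 UMIs in members. Without the library labelled Healthy, 4 proliferation genes could be tested and none passed.

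Most listed genes of blood vessel subtypes were lower in members. Of 12 general blood endothelial genes 7 were lower and 3 (Kdr, Emcn and Plvap) higher, of 11 arterial genes 8 lower and 1 (Efnb2) higher, of 9 small vessel genes 7 lower and 1 (Plvap) higher, and of 9 venous genes 5 lower and 3 (Lrg1, Ephb4 and Plat) higher. Of the venous genes 1, Plat, was higher in DESeq2, without the library block and without the library labelled Healthy or MTZ-treated, and after thinning none was. Of the general genes 1 was higher without the library block and 1 after thinning. Plvap, a protein of endothelial fenestrae, had 1102, 337, 882 and 737 CPM in members, between the small vessel (327, 303, 409 and 407 CPM) and the venous barcodes (1778, 683, 902 and 1558 CPM). Its call was lost in DESeq2, without the library block, without the library labelled Healthy or MTZ-treated, without called doublets, with at least 4 lymphatic genes and after thinning. Genes of other cell classes were lower in members too, with 9 of 9 fibroblast, 8 of 8 smooth muscle, 6 of 6 macrophage, 7 of 7 adipocyte, 3 of 3 B cell and 3 of 3 neutrophil genes tested. Without AS, 4 of 9 fibroblast genes were lower, and without the library block 6 of 9. Without the block 2 macrophage genes, 4 adipocyte genes and no B cell or neutrophil gene were lower. Of 3 T cell genes none passed, of 2 Schwann cell genes 1 was lower, of 3 lymph node stroma genes 2, of 4 erythroid genes 1, and of 1 mesothelial gene none.

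Lymphatic members differed widely among themselves in Ccl21a. A UMI of it was found in 64.7%, 27.3%, 51.8% and 70.9% of members, against 1.74%, 0.325%, 2.32% and 1.82% of blood endothelial barcodes. With each barcode thinned to 1000 UMIs the shares in members were 63.9%, 0% (0 of 11), 45.9% and 60.9%. The median member held 25, 0, 1 and 6 UMIs of Ccl21a and the highest 710, 1, 188 and 302, and the 10 highest members held 45.3%, 61.0% and 55.1% of the Ccl21a UMIs of the library labelled Healthy, MTZ-treated and MTZ-preventive.

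The Ccl21a level followed Lyve1, a split chosen after the values were seen and given as a description. Members with a Lyve1 UMI (63, 9, 31 and 84) had 16241, 157, 9799 and 6592 CPM of Ccl21a, and members without it (56, 2, 54 and 26) had 1767, 0, 905 and 668 CPM. Members without Lyve1 had to show 3 of the other 5 lymphatic genes, and their median depth was 3486, 5232, 3992 and 8762 UMIs against 3806, 2203, 2847 and 2731 with Lyve1. Called doublets made up 22.2%, 0%, 3.23% and 16.7% of those with Lyve1 and 17.9%, 0%, 1.85% and 61.5% of those without. Among members with at most 1 UMI of other-class genes the Ccl21a levels were 16773, 130, 14061 and 9437 CPM with Lyve1 and 1788, 0, 1243 and 840 CPM without.

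Some other listed genes differed along the same split. Of 7 capillary genes counted, 3 (Ccl21a, Piezo2 and Ackr2) were at least 2-fold higher with Lyve1 in the 3 larger libraries, and of 14 collecting and valve genes 1 (Fn1) was and none was higher without. Over all 240 listed genes counted, 26 were higher with Lyve1 and 9 without. Piezo2 had 86.6, 0, 57.6 and 68.0 CPM with Lyve1 and 2.74, 0, 2.50 and 4.39 CPM without, and Ackr2 40.8, 52.2, 16.5 and 56.7 CPM with and 0, 0, 2.50 and 4.39 CPM without. Ackr4 went the other way, at 35.7, 0, 24.7 and 5.67 CPM with Lyve1 and 342, 0, 90.0 and 207 CPM without, as did Car8 (17.8, 52.2, 32.9 and 11.3 CPM with, 82.2, 191, 77.5 and 65.9 CPM without). In the 3 larger libraries the feedback inhibitor Socs3 and the small vessel genes Plvap and Fabp4 were also higher without Lyve1, at least 2-fold each, while 2 others of the small vessel list, Car4 and Sparcl1, were higher with it. Foxc2 had 61.2, 52.2, 24.7 and 65.2 CPM with Lyve1 and 65.8, 0, 92.5 and 105 CPM without, higher without Lyve1 in the 3 larger libraries but not 2-fold in each, and the 2 AS members without Lyve1 were too few to give a direction. Fibroblast genes moved with the split, 8 of 8 being at least 2-fold higher with Lyve1 in the 3 larger libraries, and Col4a1, which fibroblasts also make, did so too (586, 52.2, 362 and 278 CPM against 219, 95.6, 40.0 and 65.9 CPM).

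**Figure D4:**
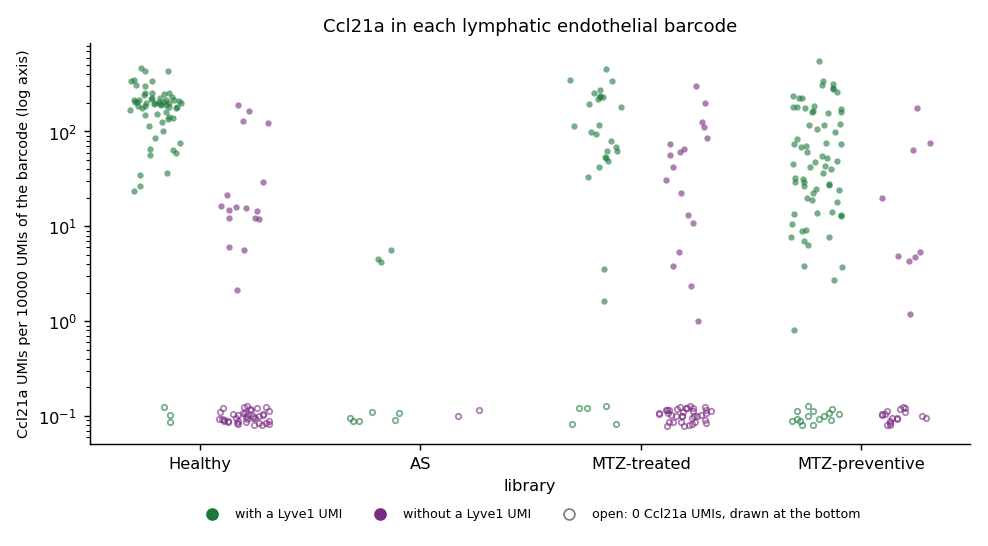
Ccl21a UMIs per 10000 UMIs of each member barcode (log axis), by library and by whether the barcode had a Lyve1 UMI. Open points have 0 UMIs of Ccl21a. In the library labelled Healthy, MTZ-treated and MTZ-preventive the high points lie mostly among members with Lyve1, and in AS 3 of 11 members had 1 UMI each.

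Differences between conditions were counted among genes with at least 10 UMIs expected in each of the libraries compared, as ratios of CPM with exact conditional intervals. Since AS held few UMIs, 408 genes could be compared between AS and the library labelled Healthy, 426 between MTZ-treated and AS and 428 between MTZ-preventive and AS, and all 3 comparisons share the 11 AS members. In AS, 12 genes were at least 2-fold higher than in the library labelled Healthy (2.94%) and 62 at least 2-fold lower (15.2%). Compared with AS, 60 genes were at least 2-fold higher in MTZ-treated (14.1%) and 6 lower (1.41%). In MTZ-preventive against AS, 60 were higher (14.0%) and 10 lower (2.34%). Genes at 0 UMIs in AS passed the limit through the larger library alone, such as Ptn (286 UMIs in the library labelled Healthy) and Apod (595 in MTZ-preventive). Genes high in AS but sparse in the larger library could miss it. The balance of higher and lower genes, in the gene lists too, is therefore partly set by this limit. With TMM factors more genes reached the limit (539, 578 and 553). The median log2 ratio over these was -0.49, 0.61 and 0.56, where it had been -0.11, 0.16 and 0.13. The counts of higher and lower genes were then 8 and 153, 165 and 3, and 160 and 4. The mean of CPM over barcodes gave 22 higher and 62 lower in AS against the library labelled Healthy.

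Ccl21a had the most extreme ratio with a UMI on both sides between AS and the library labelled Healthy, a library that goes against its genotype label. AS had 3 UMIs of it and the library labelled Healthy 7019, a CPM ratio of 0.0109 (0.00225 to 0.0319). In blood endothelial barcodes the ratio was 0.143, from 2 and 41 UMIs. Compared with AS, Ccl21a was 29.4-fold in MTZ-treated (10.0 to 143) and 42.2-fold in MTZ-preventive (14.4 to 205), from the same 3 AS UMIs. Blood endothelial barcodes had ratios of 19.4 (5.27 to 161) and 8.46 (2.29 to 70.7), from 2 AS UMIs. Among members, the highest single barcode held 10.1%, 33.3%, 12.1% and 12.2% of the UMIs of Ccl21a in the 4 libraries. Without it in each library the ratios in members were 0.00856, 36.2 and 51.9. The number of lymphatic genes detected moved with this, being exactly 3 in 9 of the 11 AS members and in 47 of 119 of the library labelled Healthy. Among members with exactly 3, Ccl21a stood at 1433 CPM in the library labelled Healthy, 156 CPM in AS, 2302 CPM in MTZ-treated and 1945 CPM in MTZ-preventive.

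Other lymphatic genes low in AS were fewer. Of 9 identity genes compared with the library labelled Healthy, 2 were at least 2-fold lower, Ccl21a and Thy1 (0.163, 0.0528 to 0.382), and 1, Nts, was higher, beside 15.2% and 2.94% of all genes. Thy1 was 2.81-fold in MTZ-treated (1.19 to 8.72) and 4.35-fold in MTZ-preventive (1.85 to 13.5) of the AS level, with ratios in blood endothelial barcodes of 0.252, 2.08 and 3.30. Without the highest barcode in each library, Thy1 in MTZ-treated against AS stood at 2.52 (0.970 to 9.32). Nts in AS was 3.73-fold that of the library labelled Healthy (2.90 to 4.73), but 80.8% of its UMIs were in 1 barcode, and without the highest barcode in each library the ratio was 1.12 (0.620 to 1.86).

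Of 7 genes of the basement membrane and its anchors, 6 were at least 2-fold lower in AS than in the library labelled Healthy and none higher, beside 15.2% and 2.94% of all genes and with the same reservation about that library's genotype label. Fn1 had 0 UMIs in AS and 321 in the library labelled Healthy, at least 4.19-fold lower, where blood endothelial barcodes had a ratio of 1.44. Ltbp4, which binds latent TGF-beta, stood at 0.213 (0.0853 to 0.440), Col4a1 at 0.165 (0.0199 to 0.601), Sparc at 0.25 (0.107 to 0.494), Timp2 at 0.337 (0.145 to 0.669) and Itgb1 at 0.382 (0.103 to 0.988). The summed fibroblast level moved with these, at 973 CPM in the library labelled Healthy and 169 CPM in AS. Compared with AS, 2 of 4 such genes were at least 2-fold higher in MTZ-treated and 2 of 4 in MTZ-preventive, in both cases Ltbp4 and Timp2, beside 14.1% and 14.0% of all genes.

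With genes at 0 AS UMIs ranked first, the other lowest in AS were Apoe, the class II chaperone Cd74, the growth factor Ptn and Marcks. At the floor of 3 AS UMIs, Apoe was at least 5.71-fold lower, opposite to the label of the untreated mice. Cd74 was at least 4.86-fold lower and Ptn at least 3.73-fold. These bounds do not place Apoe, Cd74 or Ptn below Thy1 or Col4a1, whose ratios are given above. Marcks stood at 0.0523 (0.00132 to 0.293, from 1 UMI). The flow-responsive factor Klf2 stood at 0.391 (0.213 to 0.660), and was 3.59-fold in MTZ-treated (2.13 to 6.59) and 2.54-fold in MTZ-preventive (1.5 to 4.67) of AS. Plvap stood at 0.306 (0.146 to 0.566), and at 2.61-fold and 2.19-fold of AS in the MTZ libraries. The highest in AS, beside Nts, were Gadd45g (4.61, 3.75 to 5.64), Lcn2 (3.32, 2.70 to 4.04), Ifitm2 (3.31), the ferritin heavy chain Fth1 (3.06, 2.86 to 3.26) and the inhibitor of differentiation Id3 (2.72, 2.32 to 3.18). Lcn2 in blood endothelial barcodes differed more, by 26.1-fold. Of 13 immediate early genes compared, 1, Atf3, was at least 2-fold higher in AS (2.56, 1.97 to 3.29) and none lower, and without the highest barcode in each library Atf3 stood at 1.77.

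Compared with AS, the 6 highest genes in MTZ-treated, with genes at 0 AS UMIs ranked first, were Acta2, Ptn, Tagln, Ccl21a, Clu and Gdf15. At the floor of 3 AS UMIs, Acta2 was at least 6.87-fold higher and Ptn at least 3.77-fold (lower 95% limits 5.56 and 3.04). Tagln was 31.5-fold (5.63 to 1245, from 1 AS UMI), the stress cytokine Gdf15 8.92-fold (3.03 to 43.4) and Clu 11.2-fold (1.99 to 444). Of the Acta2 and Tagln UMIs of MTZ-treated, 38.0% and 39.5% lay in 1 barcode, without which the lower 95% limits of the ratios were 3.24 and 4.85, and the summed smooth muscle level of that library was 2502 CPM. Ccl2 was 4.94-fold (2.10 to 15.3), where blood endothelial barcodes had 0.842. The lowest were Lars2 (0.323, 0.249 to 0.424), Gadd45g (0.397), Gadd45b (0.424), Ifitm2 (0.480), Rab11a (0.501) and Aldoa (0.527). Of these 6, Rab11a and Aldoa were not 2-fold lower, and without the highest barcode in each library Gadd45g stood at 0.509.

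In MTZ-preventive the highest against AS, with genes at 0 AS UMIs ranked first, were Apod, Dcn, Mgp, Ly6c1, Ccl21a and Hp. Of these, Dcn is on the fibroblast list. At the floor of 3 AS UMIs, Apod was at least 10.1-fold higher, Dcn at least 8.92-fold, Mgp at least 5.79-fold and Ly6c1 at least 4.0-fold. Their lower 95% limits were 8.2, 7.2, 4.7 and 3.2. Hp was 19.2-fold (3.43 to 762, from 1 AS UMI). Of the Hp and Ly6c1 UMIs of MTZ-preventive, 69.0% and 37.4% lay in 1 barcode. Without the highest barcode in each library the lower 95% limits were 5.62 for Apod, 5.22 for Dcn, 3.17 for Mgp, 1.89 for Ly6c1 and 1.52 for Hp. Dcn in blood endothelial barcodes had a ratio of 1.49, and the summed fibroblast level of members was 1598 CPM in MTZ-preventive and 169 CPM in AS. The lowest were Mustn1 (0.225, 0.160 to 0.322), Gadd45g (0.287), Id3 (0.398), Nts (0.427), Pnrc1 (0.428) and Rgs16 (0.434). Nts was 1.37-fold (0.826 to 2.47) without the highest barcode in each library.

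**Figure D5:**
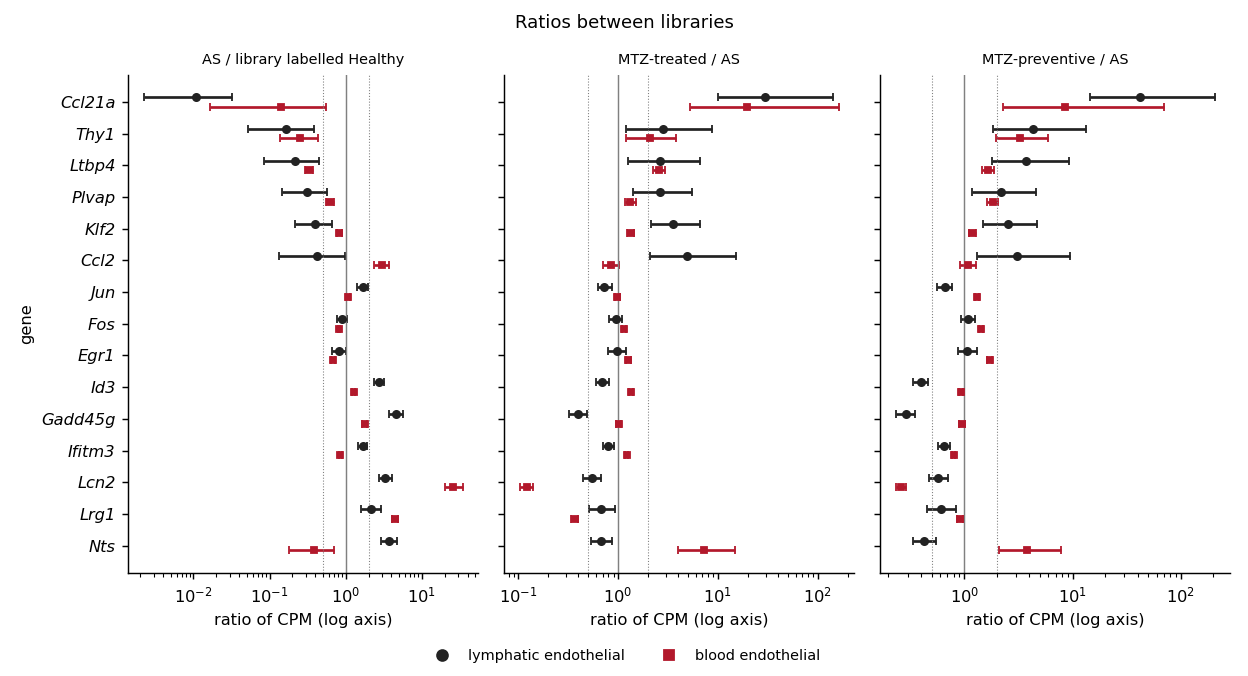
Ratio of CPM (log axis) between libraries for 15 genes in 3 comparisons, of AS with the library labelled Healthy and of both MTZ libraries with AS, in lymphatic members (circles) and blood endothelial barcodes (squares), with exact conditional 95% intervals and dotted lines at 0.5 and 2. Ccl21a lies far below 0.5 in the first comparison and above 10 in members in the other 2.

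Members of the MTZ libraries could be compared at greater depth, a comparison added after the values were seen. Of 5723 genes, 448 were at least 2-fold higher in MTZ-preventive than in MTZ-treated (7.83%) and 148 lower (2.59%). The split moved with the members counted, to 247 and 210 without called doublets and to 264 and 184 with at most 1 UMI of other-class genes. The mean of CPM over barcodes gave 635 and 367. Of 19 lymphatic identity genes 17 were within 2-fold, a share like that of all genes, with Kbtbd11 higher (2.10, 1.03 to 4.53, and 0.960 to 4.55 without the highest barcode in each library) and Rassf9 lower (0.352, 0.192 to 0.618). None of 16 immediate early genes and none of 12 heat shock genes reached 2-fold.

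Acute phase and metal genes were higher in MTZ-preventive in 7 of 14, beside 7.83% of all genes. Mt1 stood at 1944 CPM against 245 CPM, 7.93-fold (6.60 to 9.59), Mt2 at 11.3-fold (6.78 to 20.1) and Hp at 48.4-fold (23.3 to 121), and blood endothelial barcodes had ratios of 4.55, 3.69 and 63.3. As given above, most Hp UMIs of MTZ-preventive members lay in 1 barcode. Of 8 fibroblast genes 6 were higher and of 8 smooth muscle genes 5 lower, and 4 of 4 adipocyte genes were higher. Of these 4, 2 (Cfd and Cidec) had 0 UMIs in MTZ-treated and met the limit of 10 expected UMIs through MTZ-preventive alone. Single barcodes held much of some genes higher in MTZ-preventive. Cfd, at least 121-fold higher, had 84.0% of its UMIs in 1 barcode, Chga, a granin of neuroendocrine cells and at least 23.4-fold higher, 97.4%, and Cxcl13 (23.7-fold, 9.91 to 74.3) 97.0%. Genes at 0 UMIs in MTZ-treated were ranked first, which gave Cfd, Chga, Pcolce2, Cyp2e1, Pcsk1n and Cidec as the highest 6. Pcolce2, Cyp2e1, Pcsk1n and Cidec were at least 13.5-fold, 10.5-fold, 8.99-fold and 8.99-fold higher (lower 95% limits 10.5, 8.08, 6.87 and 6.87). Of their UMIs, 46.7%, 88.6%, 90.0% and 86.7% lay in 1 barcode, and without it the lower 95% limits of the ratios of Cyp2e1, Pcsk1n and Cidec were 0.595, 0.367 and 0.595. The limits of Chga and Cxcl13 were then 0.167 and 0.583, also below 1, and those of Cfd and Pcolce2 15.4 and 5.41.

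Some genes were lower in MTZ-preventive. Interferon genes were lower in 4 of 13 and higher in 1, beside 2.59% and 7.83% of all genes. Among the lower were Isg15 (0.338, 0.278 to 0.408) and Ifi27l2a (0.480, 0.441 to 0.523), with ratios of 0.450 and 0.799 in blood endothelial barcodes. The hemoglobin gene Hbb-bs stood at 0.0107, from 1 and 84 UMIs (0.000268 to 0.0612), and Des at 0.0438 (0.00514 to 0.169), the latter with 36 of its 41 UMIs in MTZ-treated in 1 barcode and at 0.179 (0.00378 to 1.60) without the highest barcodes. Selp (0.157, 0.0594 to 0.355), Atpaf2 (0.20), Zfand2a (0.20) and the granulocyte growth factor Csf3 (0.201, 0.101 to 0.372) were the other lowest. Among carbonic anhydrases, Car4 was higher at 4.85-fold (2.45 to 10.7) and Car8 lower at 0.488 (0.264 to 0.876). The chemokine scavenger Ackr2 stood at 6.29-fold (1.88 to 32.9) and Piezo2 at 2.81-fold (1.23 to 7.20). The mix of members differed beside these, with a Lyve1 UMI in 36.5% of members of MTZ-treated and 76.4% of MTZ-preventive. Within members with Lyve1, Piezo2 had 57.6 CPM in MTZ-treated and 68.0 CPM in MTZ-preventive, and Ackr2 16.5 CPM and 56.7 CPM.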

How the data were processed

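Aortas of 6 mice per group were pooled into 1 library for each of the 4 groups, made with a 10x 5′ kit. The deposited matrices hold UMI counts per gene and barcode, which the authors made with Cell Ranger and STAR on mm10, versions not given in the submitters' processing notes. The deposited tables of receptor contigs, written by Cell Ranger, gave read and UMI counts per contig and were used here only for which barcodes held one. The matrices list 6908 to 23963 barcodes, the cell numbers that the study also states, and 7617682 to 50769911 UMIs per library, and the limits used here left 2201 to 16316 barcodes. The study's own filter also limited genes per UMI and red cell content, steps not repeated here. It removed doublets with a caller as well, a step taken here only as an alternative.

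The members and gene lists were chosen with earlier results of these data known. The genes named are those lists, the 12 highest and 8 lowest log2 differences among called genes with 1 direction in every library, and the 6 highest and 6 lowest ratios of each comparison of conditions, without rule, ribosomal, mitochondrial, immunoglobulin, T cell receptor and unnamed genes. Counts of 38 symbols listed on more than 1 line, of 32245 distinct symbols, were summed. A few listed genes count in their lists but are not reported here by name.

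Members and blood endothelial barcodes were summed per library and compared with edgeR 4.0.16 (quasi-likelihood test, TMM factors, library as block, adjusted p 0.05) in R 4.3.3, with the 4 libraries as replicates. The pairs come from the same library, hence from the same mice. Genes of conditions were compared as CPM ratios, called at 2-fold, with 95% exact conditional binomial intervals, and shares with Clopper-Pearson intervals (scipy 1.17.1). Intervals and floors (3 UMIs) cover counting error only. With 1 library per group there was no test between conditions. The edgeR and interval steps were tested on simulated data. DESeq2 1.42.0, other scalings and filters, thinning to 1000 UMIs and a doublet caller (expected rate 0.8% per 1000 barcodes, 2 simulated doublets per barcode, 2000 variable genes, 30 components) served as alternatives.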

Additional observations from a re-analysis of the deposited data

Results flagged for a closer look

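In 7 of 6492 gene comparisons, lymphatic members and blood endothelial barcodes of the same libraries lay at least 2-fold apart between conditions in opposite directions, with neither interval including 1. With 1 library per group the difference was not tested.

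Nts, the neurotensin precursor, was 3.73-fold higher in AS than in the library labelled Healthy in members (2.90 to 4.73, from 78 and 535 UMIs) and stood at 0.379 in blood endothelial barcodes (0.182 to 0.712, from 11 and 85 UMIs). The library labelled Healthy held Apoe UMIs against its ApoE-/- label. In MTZ-preventive against AS it stood at 0.427 in members (0.337 to 0.547) and 3.82 in blood endothelial barcodes (2.11 to 7.75). Of the Nts UMIs of AS members, 63 of 78 lay in 1 barcode. Without the highest barcode of each library the ratios of Nts in members were 1.12 (0.620 to 1.86) and 1.37 (0.826 to 2.47), so that neither opposite direction stood. The monocyte attractant Ccl2 stood at 0.416 in AS members relative to the library labelled Healthy (0.134 to 0.982, from 5 and 307 UMIs) and at 2.96 in blood endothelial barcodes (2.36 to 3.72). Without the highest barcode of each library the ratio of Ccl2 in members was 0.442 (0.0906 to 1.31).

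In MTZ-preventive against MTZ-treated, 4 genes were at least 2-fold lower in members and at least 2-fold higher in blood endothelial barcodes. Selenbp1, a selenium binding protein, stood at 0.368 (0.149 to 0.831, from 9 and 22 UMIs) against 2.39. The interleukin 17 receptor gene Il17ra stood at 0.461 (0.255 to 0.809, from 20 and 39 UMIs) against 2.37. The thromboxane receptor gene Tbxa2r stood at 0.435 (0.218 to 0.830, from 15 and 31 UMIs) against 2.17, and Samsn1 at 0.399 (0.15 to 0.965, from 8 and 18 UMIs) against 2.67. All 4 rested on under 40 UMIs in each library's members.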

How the results depend on the processing

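Against blood endothelial barcodes, 836 genes were higher and 1171 lower. Without the replicate block, which pairs the classes within a library, 524 were higher and 627 lower, and after thinning 348 and 469. Leaving out each library in turn gave 583 to 856 higher and 800 to 1122 lower. Of the 2007 calls, 1146 were kept without the block, 778 after thinning, 1487 in DESeq2 and 1225 among members with at most 1 UMI of other-class genes. Over all genes named and alternatives of this contrast, 3256 values kept their direction and call, 282 lost the call, 105 gained one, 117 changed sign without a call on either side and 6 turned direction. Over all genes, 18 calls changed sign after thinning and 15 with at most 1 UMI of other-class genes. The 6 named, all with at most 1 UMI of other-class genes, were F11r (log2 -0.03), Fbn1 (1.26), Ifitm1 (0.43), Btnl9 (-0.32), Serpina3n (1.72) and Nr4a1 (0.06). The cause was not tested.

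Shares of members moved with the rule, in the order of the library labelled Healthy, AS, MTZ-treated and MTZ-preventive. They were 0.566%, 0.161%, 0.489% and 0.491% with a filter of 500 UMIs and 20% mitochondrial UMIs, 0.584%, 0.0909%, 0.540% and 0.386% with at least 4 lymphatic genes, 1.44%, 0.954%, 2.54% and 1.27% with at least 2, and 0.429%, 0.0454%, 0.277% and 0.264% after thinning. The share of barcodes without Ptprc was 1.38% in the library labelled Healthy, the shares of endothelial barcodes 8.64%, 1.45%, 3.08% and 2.89%, and, after thinning with at least 2 lymphatic genes, 4.33%, 0.553%, 2.26% and 2.09% of barcodes with an endothelial gene. The AS share relative to the library labelled Healthy was 0.156 with at least 4 genes, 0.106 after thinning, 0.168 of endothelial barcodes, 0.333 with thinning and at least 2 genes and 0.128 when that repeat was taken over barcodes with an endothelial gene, but 0.596 (0.288 to 1.12) without called doublets and 0.661 (0.40 to 1.04) with at least 2 genes, where the interval includes 1. MTZ-treated relative to AS was 5.95 with at least 4 genes and, from 1 AS member, 6.10 after thinning (0.976 to 252.9, an interval that includes 1). MTZ-preventive relative to AS was 3.05 with the looser filter, 4.25 with at least 4 genes, 5.80 after thinning (0.987 to 234.4), and, with thinning and at least 2 genes, 2.43 of all barcodes and 3.78 of barcodes with an endothelial gene. MTZ-preventive relative to MTZ-treated was 1.01 with the looser filter, 0.951 after thinning and 0.939 of endothelial barcodes. With thinning and at least 2 genes it was 0.924 over barcodes with an endothelial gene and 0.620 over all barcodes (0.459 to 0.842). In the other alternatives it lay between 0.462 and 0.714.

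Counts of genes 2-fold apart between conditions also moved. For AS against the library labelled Healthy they were 153 lower with TMM factors, 22 higher with mean CPM over barcodes, 34 higher and 164 lower with 5 expected UMIs, and 24 and 110 with at least 2 lymphatic genes. For MTZ-treated against AS they were 165 and 3 with TMM factors, 10 lower with mean CPM, 143 and 20 with 5 expected UMIs and 12 lower with at least 2 genes. For MTZ-preventive against AS they were 160 and 4, 20 lower, 162 and 24, and 98 higher. For MTZ-preventive against MTZ-treated they were 367 lower with mean CPM, 893 and 325 with 5 expected UMIs, 247 higher without called doublets, 802 higher with at least 2 genes and 264 higher with at most 1 UMI of other-class genes. Nts in MTZ-preventive against AS was 1.37 without the highest barcode of each library. Of the other named values between libraries that had a ratio, 290 kept their side of 2-fold and 15 did not. Genes at 0 UMIs in the library compared against had no ratio and were not counted. Without the highest barcode, the lower limits of Cyp2e1, Pcsk1n, Cidec and Chga in MTZ-preventive against MTZ-treated were 0.595, 0.367, 0.595 and 0.167. Those of Cfd and Pcolce2 there, and of Acta2, Ptn, Apod, Dcn, Mgp and Ly6c1 against AS, stayed above 1. The rule of 4 lymphatic genes left 2 members in AS, so comparisons of genes with AS were not run under it. The repeats with thinning and 2 genes, with at most 1 UMI of other-class genes and without the highest barcode were chosen after seeing the data. The 29637 UMIs of AS members limit most of these comparisons, since 0 UMIs there allow 101 CPM.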
